A study of Mus musculus with 3 samples.

Results

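The cells described here are the Inmt- and Gdf10-expressing fibroblasts of uninjured mouse sciatic nerve. They were chosen by a rule on expression, applied to the authors' table of 880 mesenchymal cells. Each gene's log-normalised level was expressed as a z-score over those cells, and a cell was a member if the mean z-score of set C (Inmt, Gdf10, Adh1 and Cxcl13) was above 0 and above that of 4 other sets. These were set A (Sox9, Osr2, Etv1, Apod, Angptl7 and Enpp2), set B (Pi16, Dpp4, Pcsk6 and Dmkn), set D (Comp, Fmod, Clec11a and Kazald1) and set E (Slc2a1, Itgb4, Cldn1, Msln and Lypd2). The rule took 149 of 880 cells (16.9%, exact binomial interval 14.5 to 19.6%). The other 731 cells comprised 372 in set A, 121 in set B, 115 in set D, 82 in set E and 41 with no set above 0.

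The series holds 3 Drop-seq libraries of sciatic nerve, which captures single cells in droplets and tags every RNA molecule so that its cell and its copy number can be read (unique molecular identifier, UMI). Of the injured libraries, one came from adult wild-type CD1 mice and was passed through myelin removal beads, and the other came from adult CD1 and C57BL/6 mice and was sorted by FACS, the gate being unknown here. Both were made from the distal segment 9 days after nerve resection. The uninjured library came from adult wild-type CD1 mice and was passed through the beads. All nerves were digested with collagenase and trypsin, and how many mice went into a library is unknown here. With 1 library per condition, the differences are not checked by any replicate and were not tested. Intervals in brackets are 95% intervals and cover counting error only.

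Peripheral nerve has fibroblasts in its outer sheath (the epineurium), flattened perineurial cells around each fascicle and endoneurial mesenchymal cells among the axons. Inmt encodes indolethylamine N-methyltransferase, which methylates small amines and selenium or sulfur compounds. Gdf10, also called Bmp3b, is a secreted ligand of the TGF-beta superfamily. Adh1 is an alcohol dehydrogenase that oxidises ethanol and retinol, and Cxcl13 is a chemokine that attracts B cells through the receptor Cxcr5.

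In the GENCODE vM21 annotation of GRCm38, Inmt lies on chromosome 6 (55170626 to 55175043, minus strand), Gdf10 on chromosome 14 (33923587 to 33937983, plus strand), Adh1 on chromosome 3 (138260991 to 138290698, plus strand) and Cxcl13 on chromosome 5 (95956951 to 95961068, plus strand). The promoters of 3 of these markers are shown because the genes were read together by the rule, yet were found in partly different members, as described below. Each runs from 250 bases before to 50 bases after the RefSeq start in GRCm38.p6, 5′ to 3′ on the gene's strand. Capitals mark matches on either strand to TATAAA, TTGCNNAA or GGGCGG.
Inmt, chr6:55174941-55175240, minus strand: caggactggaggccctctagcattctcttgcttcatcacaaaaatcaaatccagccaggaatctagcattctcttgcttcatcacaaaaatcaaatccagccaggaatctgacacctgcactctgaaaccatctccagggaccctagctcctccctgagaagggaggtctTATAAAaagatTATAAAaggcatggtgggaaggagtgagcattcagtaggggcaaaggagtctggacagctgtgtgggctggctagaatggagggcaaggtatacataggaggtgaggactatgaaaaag
Gdf10, chr14:33923337-33923636, plus strand: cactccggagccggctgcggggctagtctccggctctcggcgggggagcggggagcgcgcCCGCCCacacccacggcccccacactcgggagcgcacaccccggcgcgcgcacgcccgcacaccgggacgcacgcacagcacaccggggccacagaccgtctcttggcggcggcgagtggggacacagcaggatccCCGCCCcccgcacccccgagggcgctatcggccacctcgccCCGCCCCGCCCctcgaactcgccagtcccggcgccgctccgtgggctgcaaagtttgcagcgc
Cxcl13, chr5:95956689-95956988, plus strand: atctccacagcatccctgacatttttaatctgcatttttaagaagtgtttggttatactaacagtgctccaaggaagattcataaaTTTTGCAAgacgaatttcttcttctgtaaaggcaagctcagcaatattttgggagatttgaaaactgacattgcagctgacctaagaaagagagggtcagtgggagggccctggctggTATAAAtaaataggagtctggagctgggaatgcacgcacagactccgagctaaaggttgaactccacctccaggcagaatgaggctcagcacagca
The Inmt promoter held 2 matches to TATAAA, and that of Cxcl13 held 1 match to TATAAA and 1 to TTGCNNAA, the letters bound by C/EBP factors. The Gdf10 promoter held no TATAAA and 4 matches to GGGCGG, the GC box bound by Sp factors. Adh1, at chr3:138277335-138277634, held none of these motifs. Among 32851 RefSeq promoters of this length, 13.6% held TATAAA, 10.8% TTGCNNAA and 35.7% GGGCGG. A match describes the letters only.

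The members' set C scores ranged up to 2.68 with a median of 1.04, and the lowest member had 0.103. Just outside the rule were 2 cells whose highest set was C but whose score was not above 0, the higher of them at -0.0411. The smallest margin of a member over its next set was 0.00528, and the closest cell on the other side had a margin of -0.00937. Within 0.1 of the boundary lay 10 members and 16 other cells. Another set was also above 0 in 95 of the 149 members, most often set D (45 members) or set B (42 members), and less often set E (5) or set A (3).

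All 4 marker genes chose the members, so their levels are a description. Values are CPM, a gene's summed UMIs in a pool of cells scaled to a pool total of 1000000. Inmt stood at 2570 CPM in members, 1294 in set D, 297 in set E, 288 in set B and 13.6 in set A. Gdf10 stood at 1399 CPM in members, 468 in set D, 76.0 in set B and 14.6 in set A. Both were therefore shared with the Comp and Fmod cells of set D at a lower level. Adh1 stood at 590 CPM in members and 92.0 in set B, its next highest set. Cxcl13 stood at 740 CPM in members, 448 in set B and 6.28 in set D, so the neighbour that shared it was set B.

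In single cells the markers were sparse. A UMI of Gdf10 was seen in 111 members (74.5%), of Adh1 in 86 (57.7%), of Inmt in 85 (57.0%) and of Cxcl13 in 39 (26.2%). In set A cells, at a median depth of 2464 UMIs against 2101 in members, the shares were 4.03%, 6.99%, 2.69% and 1.08% in the same order. The sets most like the members shared more. Cxcl13 was seen in 25.6% of set B cells (median depth 1881 UMIs), about as often as in members. Gdf10 and Inmt were each seen in 46.1% of set D cells (median depth 2095 UMIs). Adh1 was seen in 13.2% of set B and 7.83% of set D cells. With every cell thinned to 1000 UMIs, which left 129 members and 342 set A cells, the members' shares were 55.0% for Gdf10, 34.9% for Adh1, 47.3% for Inmt and 18.6% for Cxcl13, against 0.877%, 3.80%, 1.17% and 1.17% in set A. Thinned set B cells had Cxcl13 in 13.3%, and thinned set D cells had Inmt in 37.1% and Gdf10 in 26.8%. Of the members, 32 carried 1 of the 4 markers, 64 carried 2, 51 carried 3 and 2 carried 4.

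The markers did not pair evenly. Over all 880 cells, 58.0% of the 188 cells with Inmt also had Gdf10, against 12.4% of cells without Inmt. Of the same 188 cells, 5.32% had Cxcl13, against 9.68% of cells without Inmt. Adh1 joined both: it was seen with Gdf10 in 73 cells, with Inmt in 57 and with Cxcl13 in 33. These are shares of cells in 1 library, given as a description.

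Each marker was then left out of the rule in turn and measured in the cells chosen by the other 3, in which it was not used. Adh1 stood at 488 CPM in the 158 cells so chosen and 59.0 CPM in the remaining cells (log2 ratio 3.05, 2.69 to 3.41). Gdf10 stood at 1044 CPM in the 149 chosen cells and 178 CPM in the others (log2 2.56, 2.33 to 2.78), and Inmt at 1939 CPM in the 155 chosen cells and 405 CPM in the others (log2 2.26, 2.11 to 2.41). The set D cells of those choices held 1696 CPM of Inmt and 623.5 CPM of Gdf10, so Inmt there was close to its level in the chosen cells. Cxcl13 stood at 307 CPM in the 162 chosen cells, 147 CPM in all others (log2 1.06, 0.73 to 1.39) and 692 CPM in the set B cells of that choice. Without its own vote, Cxcl13 was thus higher in set B than in the chosen cells.

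**Figure D1:**
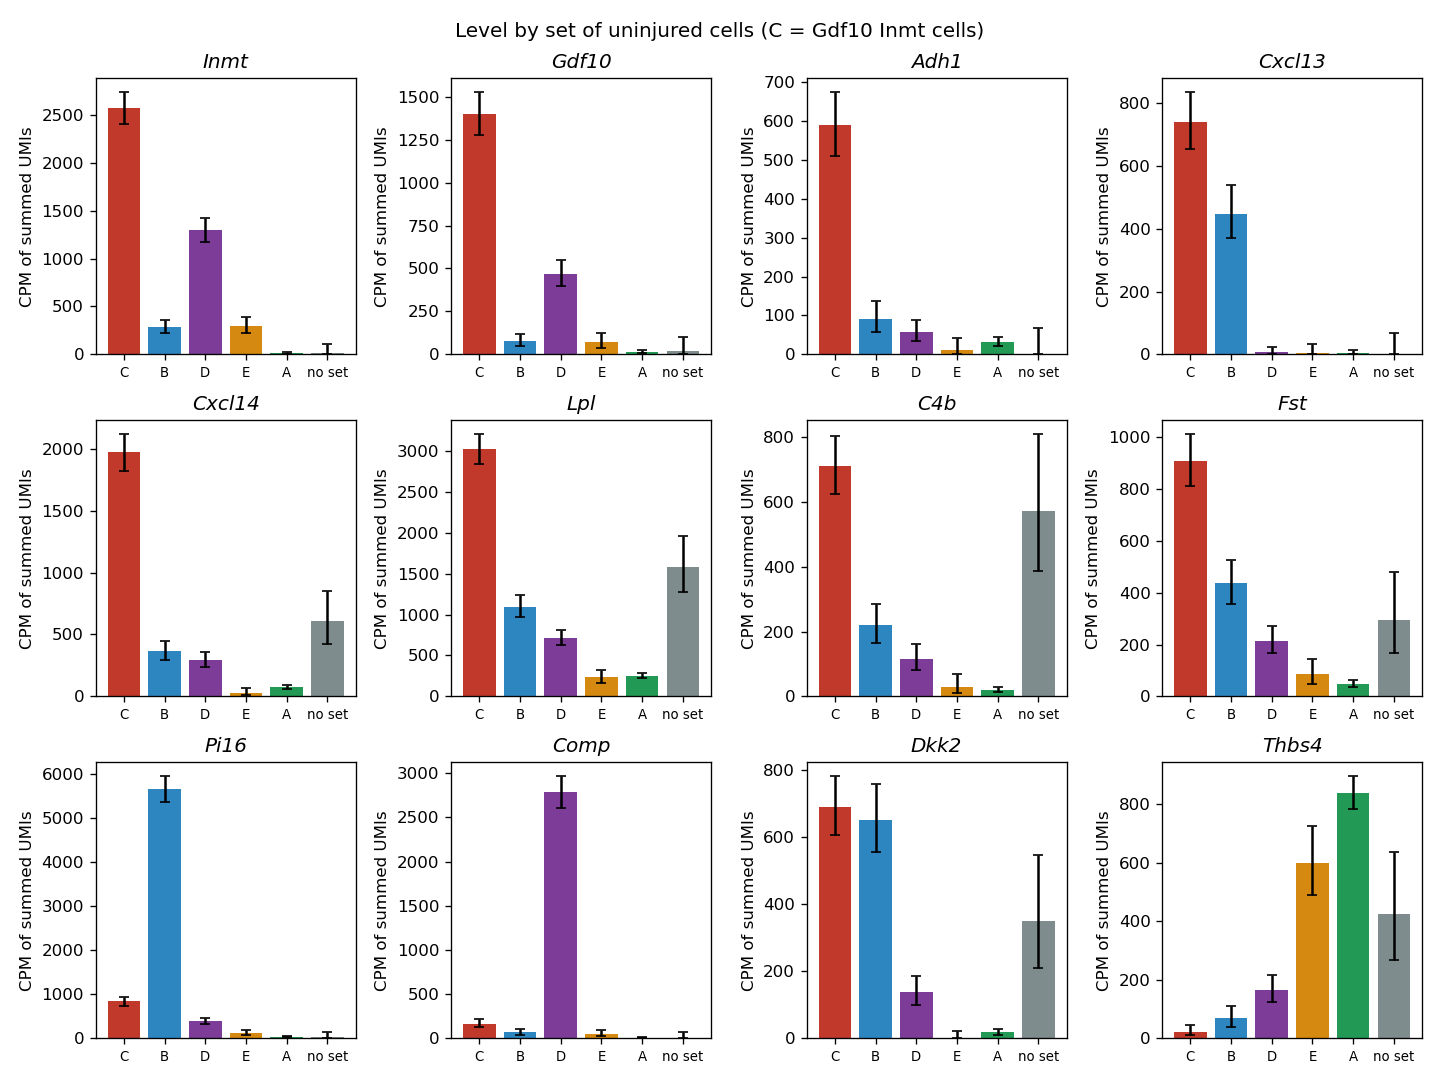
Level of 12 genes by set of uninjured cells, in CPM of summed UMIs, with exact Poisson 95% intervals. The top row is the 4 markers that chose set C. Inmt at 2570 CPM and Gdf10 at 1399 CPM in set C have their next bar in set D, Cxcl13 has it in set B, and Cxcl14 and Lpl, which the rule did not use, are also highest in set C.

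The members pool held 345926 UMIs (median 2101 per cell, 1072 genes) and the other cells 1823195 (median 2104). The 12 mesenchymal markers were all seen in members. T or NK cell and mesothelial markers were at 0 in members, as were Cd68, C1qa, C1qb, C1qc and Tyrobp of the macrophage list. Summed Schwann cell markers stood at 717 CPM in members and 785 CPM in other cells, endothelial markers at 211 and 286 CPM, and pericyte or smooth muscle markers at 370 and 539.7 CPM. The pericyte or smooth muscle sum was 1907 CPM in set E and 349 CPM in set A. By the rule of size given below, Kcnj8 and Abcc9 of that list were higher in members, and Cspg4, Acta2 and Tagln were lower. Abcc9 was also higher against each of sets B, D and A, and in set C cells of both injured libraries. Other lists were higher in members on few UMIs: macrophage or monocyte markers stood at 37.6 CPM in members (13 UMIs) and 25.2 CPM in other cells, and neutrophil markers at 54.9 CPM (19 UMIs) and 13.7 CPM, with Il1r2 of that list past the rule of size given below. B cell markers stood at 17.3 and 12.1 CPM and adipocyte markers at 46.2 and 25.8 CPM. The part of these cell types in the results was not tested. Erythroid genes stood at 4380 CPM in members and 1087 CPM in other cells, but 1344 of the members' 1515 erythroid UMIs came from 1 cell. Without that cell the members had 502 CPM. Haemoglobin genes are therefore not named in what follows, but they and that cell stay in the pools and in the counts of genes. No barcode was shared between the uninjured library and either injured one, while 1 was shared between the 2 injured libraries.

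Outside the rule's genes, those highest in members over the other uninjured cells included Cxcl14, Acvr2a and Fst. Higher and lower here mean past a rule of size: at least 50 CPM in either pool, at least 2-fold, and an interval that leaves out equality. Of 3752 genes at that level, 254 (6.77%) were higher in members and 269 (7.17%) were lower. With TMM factors, which correct for composition, they were 200 and 341. The contrast is the one that chose the cells, so these counts and the genes below describe the members and support nothing. The highest gene was Cxcl14, a chemokine of epithelia and stroma, at 1972 CPM in members and 164 CPM in other cells (log2 3.59, 3.39 to 3.79). It was seen in 73 of 149 members.

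The 15 highest genes included 3 of the activin and BMP pathways. Acvr2a, an activin receptor, stood at 306 CPM in members and 27.4 CPM in other cells (log2 3.48, 2.98 to 3.997). Fst, which encodes the activin antagonist follistatin, stood at 908 and 140 CPM (log2 2.69, 2.45 to 2.94) and was seen in 94 members. Bmper, a secreted BMP modulator, stood at 214 and 31.8 CPM. Genes of vessel growth were also among them. Angpt1, a ligand of the receptor Tie2, stood at 197 CPM in members and 19.2 CPM in other cells (log2 3.36, 2.75 to 3.99), and Angpt4 of the same family at 80.9 and 9.87 CPM. Ccbe1, which takes part in lymphatic vessel growth, stood at 63.6 and 6.03 CPM, on only 22 UMIs in members.

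Immune ligands and complement followed. C4b, a complement component, stood at 711 CPM in members and 81.2 CPM in other cells (log2 3.13, 2.83 to 3.44), with the caveat that its reads may be shared with its near copy C4a. Ccl19, the ligand of Ccr7 made by lymphoid stroma, stood at 63.6 and 6.58 CPM. Penk, the precursor of enkephalin peptides, stood at 752 CPM in members and 109 CPM in other cells (log2 2.79, 2.52 to 3.06). Eln, which encodes elastin, stood at 145 and 18.1 CPM. The others were Dner at 86.7 and 9.87 CPM, Plac8 at 220 and 26.9 CPM, Tspan11 at 156 and 24.1 CPM, and Ifi205 at 237 and 30.7 CPM, a gene with close paralogs to which reads may be misassigned. Lpl, lipoprotein lipase, had the most UMIs of the genes named here, at 3024 CPM in members and 487 CPM in other cells (log2 2.64, 2.51 to 2.77). It had a UMI in 118 members (79.2%), in 70.2% of set B cells, 52.2% of set D cells and 30.1% of set A cells. Its detection was thus widely shared with set B.

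Several of these were also above the other cells in members with UMIs of only 1 of the 4 marker genes. Lpl stood at 2727 CPM in the 32 members with 1 marker, 2722 CPM in the 64 with 2 and 3410 CPM in the 53 with 3 or 4. Fst stood at 1499, 750.4 and 872 CPM in the same groups, and C4b at 624.5, 675 and 773 CPM. Plac8 was uneven, at 83.3, 246 and 238 CPM. An alternative added after the data were seen kept only the 54 members with no other set above 0. The 95 mixed members then counted among the other cells, 826 in all. Over that pool, which holds most of the members, Plac8 had a log2 ratio of 0.25, Bmper 0.51, Angpt1 2.07 and C4b 2.13.

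The 10 lowest genes had between 1 and 12 UMIs in members. Thbs4, a matricellular thrombospondin, stood at 23.1 CPM in members and 581 CPM in other cells (log2 -4.65, -5.87 to -3.67). A2m, the protease inhibitor alpha-2-macroglobulin, had 2 UMIs in members (5.78 CPM) and 260.5 CPM in other cells. Plxdc1, Tec, P2ry14, Sdc3, Col26a1, Nt5e and Cthrc1 each had 1 UMI in members, so their ratios are imprecise. With possible doublets left out, Sdc3 and Nt5e had log2 ratios of -0.90 and -0.84, under 2-fold. Most of their signal in other cells was in set A, where Plxdc1 stood at 263 CPM and P2ry14 at 147 CPM. Sfrp5, a secreted Wnt antagonist, stood at 34.7 CPM in members and 845 CPM in other cells, nearly all of it in set E at 8698 CPM.

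By list, chemokines had 4 genes higher and 4 lower of 9 in members against other cells. Cxcl14, Cxcl16, Ccl19 and the marker Cxcl13 were higher, and Cxcl1, Ccl2, Ccl7 and Ccl11 were lower. BMP and Wnt antagonists had 5 genes higher and 1 lower of 11 in members against other cells (median log2 0.88, all genes 0.05). The 5 were Bmper, Fst, Sfrp1, Sfrp2 and Dkk2, and the lower gene was Sfrp5. Neurotrophic ligands had 5 higher and 0 lower of 8 (median 1.505), namely Igf1, Igf2, Fgf7, Fgf10 and Vegfa. Elastic fibre genes had 5 higher and 0 lower of 14, namely Eln, Fbln1, Fbln5, Mfap4 and Ltbp4. The IGF axis had 5 higher and 0 lower of 9 (median 1.15), with Igfbp4 at 2527 CPM in members and 798 CPM in other cells, but 3 and 1 with a median of 0.04 when possible doublets were left out. Universal fibroblast genes had 3 higher and 0 lower of 15 and basement membrane genes 0 higher and 4 lower of 13.

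Since the other cells were a mixture, members were set against each of sets B, D and A. There were 54 genes outside the rule that were higher in members than in all 3, and 6 that were lower (Ccl7, Creb3, Dnajb9, Herpud2, Thbs4 and Ufsp2). Over all genes, 4.94% were higher and 8.15% lower against set B, 13.1% and 4.73% against set D, and 14.3% and 9.81% against set A. These splits depend on the scaling, as given below. How many genes reached the level of the rule in all 3 was not counted, so 54 and 6 have no share beside them. Of the 15 highest genes, 11 were among the 54, and Ccbe1, Angpt4, Plac8 and Tspan11 were not. Plac8 was seen in 20.7% of set B cells and 19.5% of members, and Tspan11 in 19.1% of set D cells and 22.8% of members. The 54 also include 3 haemoglobin genes carried largely by the cell above. Another was Igf2, an insulin-like growth factor, at 139 CPM in members, 12 in set B, 12.6 in set D and 46.7 in set A. Il6, a cytokine, stood at 66.5 CPM in members, 4 in set B, 0 in set D and 26.2 in set A. Vcam1, an adhesion molecule for leukocytes, stood at 83.8, 36.0, 37.7 and 41.8 CPM in the same order. The 3 comparisons share the members, so they are not independent of each other.

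Against the Pi16 and Dpp4 cells of set B, 199 of 4025 genes (4.94%) were higher in members and 328 (8.15%) lower, with 251 and 263 under DESeq2 size factors. In that comparison the highest were Dner, Icosl, Il6, Ccbe1 and Sart3, each with 22 to 30 UMIs in members and 1 UMI in set B. The lowest were Krtdap, Cmah, Plxdc1, Sbsn and Aif1l: Krtdap stood at 2.89 CPM in members and 264 CPM in set B (log2 -6.51, -11.84 to -3.98). Genes of universal and adventitial fibroblasts had 0 members of the list higher and 12 lower of 16, with a median log2 ratio of -1.69 where all genes had -0.05. The 12 include Pi16 and Dpp4, which chose set B and so had to be lower in members. Wnt2, Sema3c, Fn1 and Cd248 were also among the 12, and Ly6a was not: it stood at 3137 CPM in members and 3285 CPM in set B. Igfbp5, an IGF-binding protein, stood at 1523 CPM in members and 6249 CPM in set B. Fmo2, a flavin monooxygenase, stood the other way, at 324 and 28.0 CPM.

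Against the Comp and Fmod cells of set D, 478 of 3636 genes (13.1%) were higher in members and 172 (4.73%) lower. That split depends on the scaling: with TMM factors it was 220 higher and 280 lower. The highest were Plac8 at 220 CPM in members and 3.14 CPM in set D, Smpd3 at 145 and 6.28 CPM, S1pr3, Psmb9 and Wdr3. The lowest were Cthrc1, Siah1a, Fgf16, Ncam1 and M1ap, each with 1 or 2 UMIs in members. Of the fibrillar collagen and crosslinking genes, 0 were higher and 8 lower of 15 (median log2 -1.11, all genes 0.30). Col1a1 stood at 5678 CPM in members and 18380 CPM in set D, and Col3a1 at 17280 and 37620 CPM. Small leucine-rich proteoglycans, which bind collagen fibrils, had 0 higher and 4 lower of 10: Prelp, Aspn, Ecm2 and Fmod, the last of which chose set D and so had to be lower. Universal fibroblast genes had 8 higher and 1 lower of 16 here (median 0.998), with Cd248 at 486 CPM in members and 62.8 CPM in set D. Igfbp6 stood at 2385 CPM in members and 11970 CPM in set D.

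Against the cells of set A, 548 of 3832 genes (14.3%) were higher in members and 376 (9.81%) lower, with 404 and 495 under TMM factors. The highest were Mmp3 at 280.4 CPM in members and 0.972 CPM in set A, C7 at 350 and 1.94 CPM, Tspan11, Wisp2 and Boc. The lowest were Plxdc1, A2m, Tec, P2ry14 and Sdc3. All 10 BMP and Wnt antagonists at the level of the rule were higher (median log2 3.16, all genes 0.13). Sfrp4 stood at 2044 CPM in members and 38.9 CPM in set A, Sfrp2 at 1732 and 49.6 CPM, and Dkk2 at 691 and 18.5 CPM. Complement genes had 10 higher and 1 lower of 12, among them C3, the central complement component, at 2000 CPM in members and 65.1 CPM in set A.

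Sterol synthesis genes had 0 higher and 10 lower of 12 in members against set A (median log2 -2.08). Hmgcs1, a sterol synthesis enzyme, stood at 113 CPM in members and 436 CPM in set A, and Sqle, squalene epoxidase, at 26.0 and 176 CPM. Against set B the same list had 1 higher and 1 lower of 6, and against set D 2 higher and 0 lower of 2. Immediate early and dissociation stress genes moved with it: 1 was higher and 11 lower of 17 against set A, with Jun at 3602 CPM in members and 9519 CPM in set A. Their part in the sterol difference was not tested.

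Some lists had more genes higher than lower against each of the 3 sets. Neurotrophic ligands had 3 higher and 1 lower of 8 against set B, 3 and 1 of 9 against set D, and 7 and 0 of 8 against set A. Detoxification and one-carbon enzymes, a list that holds the markers Inmt and Adh1, had 4 higher and 0 lower of 17, 5 and 1 of 17, and 8 and 0 of 16. The 4 against set B were Fmo2, Cyp1b1 and the markers Inmt and Adh1, which chose the members. Adh1 was also among the 5 against set D, and both markers were among the 8 against set A. Chemokines divided: Cxcl14 and Ccl19 were higher against each set, while Ccl7, a monocyte chemoattractant, stood at 34.7 CPM in members, 296 in set B, 97.4 in set D and 521 in set A. Igf1 stood at 1512 CPM in members, 1096 in set B, 929.6 in set D and 388 in set A.

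**Figure D2:**
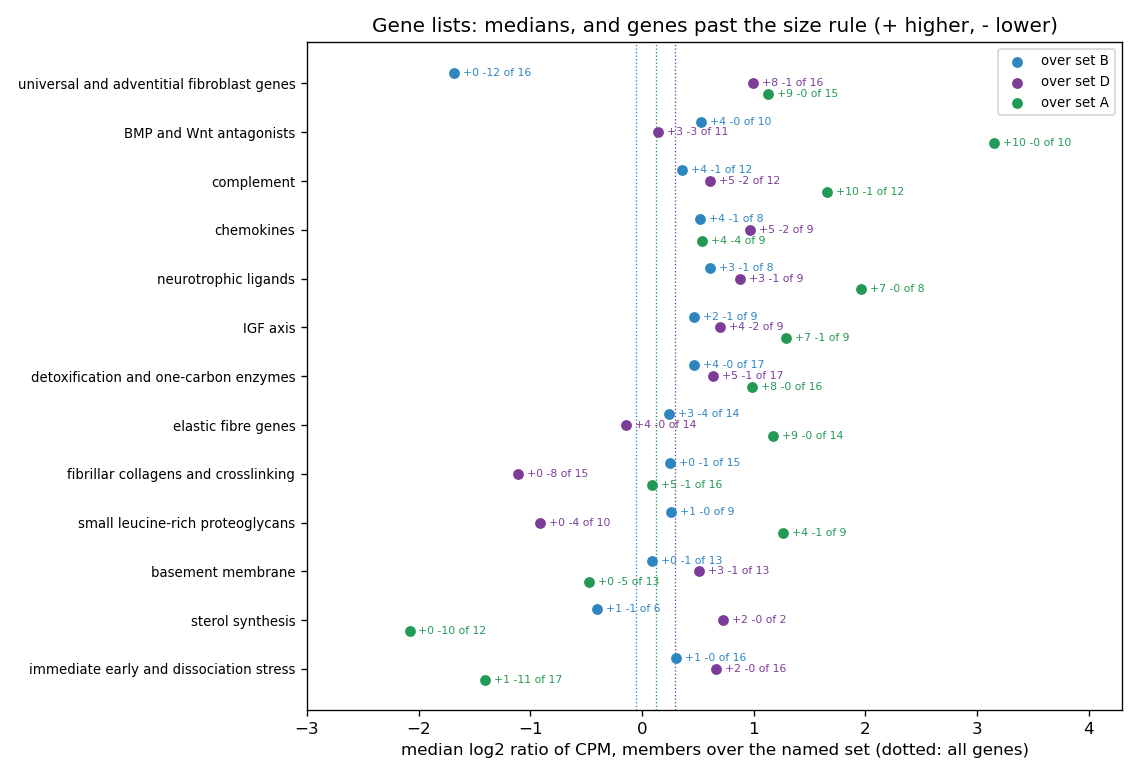
Median log2 ratio of CPM of 13 gene lists in members over set B, set D and set A cells, with the number of genes higher, lower and at the level of the rule beside each point, and dotted lines for the median of all genes. Universal fibroblast genes lie at -1.69 over set B and 0.998 over set D, fibrillar collagens at -1.11 over set D and sterol synthesis at -2.08 over set A.

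The members were next placed by a clustering that left out all 23 genes of the rule. At resolution 0.8, 95 of the 149 members (63.8%) fell in 1 cluster of 115 cells, of which 82.6% were members. Another 24 fell in the cluster of most set D cells, 15 in a mixed cluster with 19 set B and 15 set D cells, and 9 in the cluster of most set B cells. At resolution 0.4 the members had no cluster of their own. There 91 fell in a cluster of 228 cells with 109 set B cells (39.9% members). Another 51 fell in a cluster of 154 cells with 93 set D cells (33.1% members). At resolution 1.6 the largest share of members in 1 cluster was 35.6%. Whether members separate from sets B and D thus depends on the resolution. Of a member's nearest neighbours in that space, 59.8% on average were members, against 19.5% for set B cells, 15.9% for set D and 1.07% for set A, with members 16.9% of all cells. The 9 members in the set B cluster had Cxcl13 at 2986 CPM, Pi16 at 2628 CPM and 0 UMIs of Inmt and Cxcl14. The 24 in the set D cluster had Inmt at 4935 CPM and 0 UMIs of Cxcl13.

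**Figure D3:**
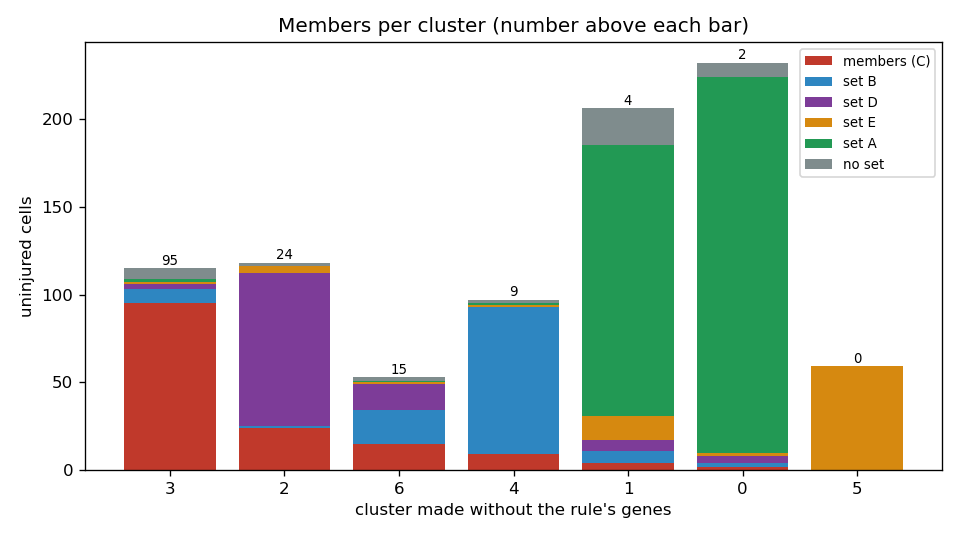
Uninjured cells per cluster, from a clustering at resolution 0.8 that used none of the rule's genes, coloured by set, with the number of members above each bar. Cluster 3 holds 95 members and few other cells, and clusters 2, 6 and 4 hold 24, 15 and 9.

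Members differed among themselves. At resolution 1.6, 2 clusters held 53 and 45 members, in 70 and 55 cells, and the rule's genes had no part in that clustering. Their cells are not exactly those of the main cluster at resolution 0.8. Cxcl13 stood at 1334 CPM in the 53 and 128 CPM in the 45 (log2 3.39, 2.55 to 4.36). Inmt stood at 883 CPM in the 53 and 5035 CPM in the 45 (log2 -2.51, -2.81 to -2.23), and Gdf10 at 939 and 2214 CPM. Adh1 did not differ by its interval, at 706 and 617 CPM (log2 0.19, -0.29 to 0.69). Only members were compared, and a member low in Inmt and Gdf10 needs more of the other markers to be chosen. Opposite levels of Cxcl13 and Inmt are thus partly fixed by the rule. Among genes used for the clustering, Dkk2, a Wnt antagonist, stood at 1130 CPM in the 53 and 31.9 CPM in the 45, and Postn, a matricellular protein, at 579 and 10.6 CPM. Mgp, matrix Gla protein, stood at 995.5 CPM in the 53 and 7568 CPM in the 45, and Fmo2 at 84.7 and 777 CPM. Wfdc1 and Ccbe1 had 1 UMI each in the 53, against 22 and 19 in the 45.

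The same contrast was seen between members with and without a Cxcl13 UMI, a split chosen after the data were seen, and it could be taken to the injured libraries. In uninjured nerve, Mgp stood at 139 CPM in the 39 members with Cxcl13 and 3990 CPM in the 110 without (log2 -4.84, -5.72 to -4.09). In the injured beads library it stood at 637 CPM in 34 set C cells with Cxcl13 and 2472 CPM in 132 without (log2 -1.96, -2.40 to -1.55). In the FACS library it stood at 1255 CPM in 21 with and 5412 CPM in 53 without (log2 -2.11, -2.40 to -1.83). Mfap4, a microfibril protein, was also lower in the Cxcl13 cells of each library, with log2 ratios of -2.58 in uninjured nerve, -1.26 in the injured beads library and -2.97 in the FACS library. Mmp3, a matrix metalloprotease, was higher in each, by 1.61, 1.47 and 1.26.

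Inmt followed Mgp, at 328 CPM in members with Cxcl13 and 3489 CPM in members without. A cell with Cxcl13 needs less of the other markers to be chosen, so lower Inmt and Gdf10 in it are partly fixed by the rule. Mgp, Mfap4 and Mmp3 were not among the rule's genes, but a gene that goes with Inmt can be shifted by the same choice of cells. Between the 53 and 45 members above, Mgp stood at 995.5 and 7568 CPM beside Inmt at 883 and 5035 CPM. The rule was applied in each library, and its part in the differences of these genes was not tested. In the injured libraries the Cxcl13 cells also had more Pi16, at 929 CPM against 275 CPM without Cxcl13 in the beads library and 1793 against 375 CPM in the FACS library, while in uninjured members the interval included equality (974 CPM with, 783 CPM without). Median depth was 2553 UMIs with Cxcl13 and 1988 without in uninjured nerve.

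**Figure D4:**
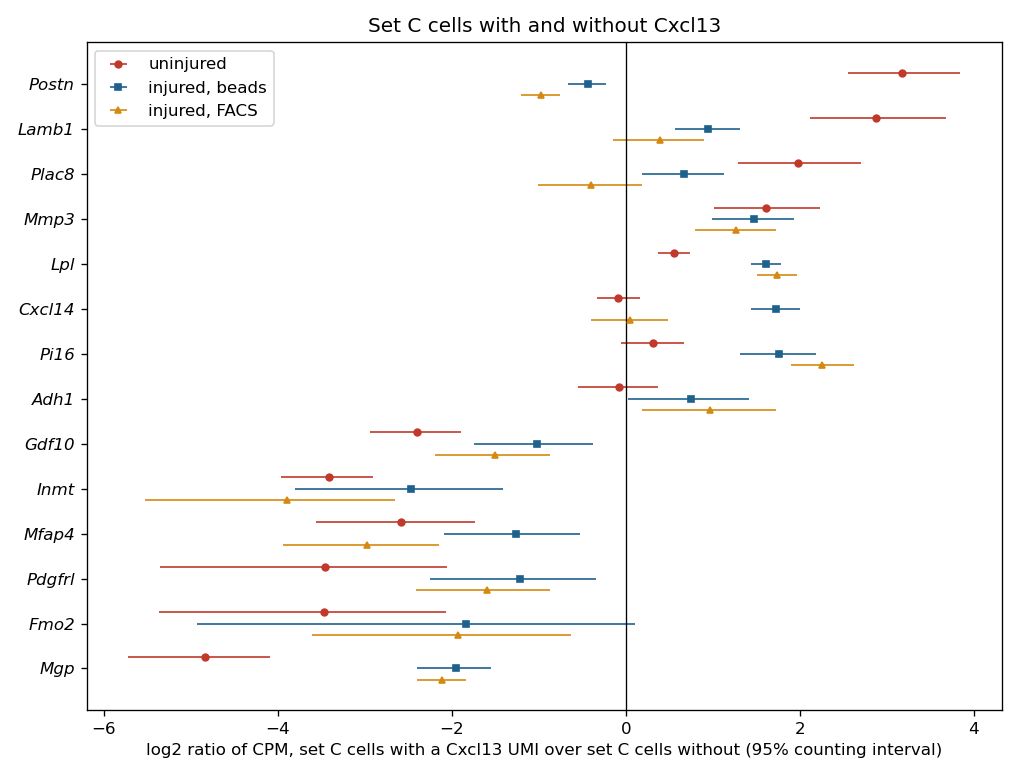
Log2 ratio of CPM in set C cells with a Cxcl13 UMI over set C cells without, for 14 genes in 3 libraries, with 95% counting intervals. Mgp, Pdgfrl, Mfap4, Inmt and Gdf10 lie below 0 in all 3 libraries, Mmp3 lies above 0 in all 3, and Postn lies above 0 in uninjured nerve only.

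The injured libraries were used to see whether the members' genes went with the set C markers in cells that the uninjured table does not hold. The rule was applied anew to the 1289 injured mesenchymal cells of the beads library, where it took 166, and to 530 mesenchymal-like cells of the FACS library, where it took 74. The z-scores were made within each library, so the numbers of cells chosen are not compared. In the injured beads library 106 of 4017 genes (2.64%) were higher in set C cells than in other mesenchymal cells and 122 (3.04%) lower. In the FACS library 151 of 3892 (3.88%) were higher and 168 (4.32%) lower.

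Of the 250 genes outside the rule that were higher in uninjured members, 160 reached the level of the rule in the injured beads library. There 139 lay in the same direction (86.9%, against 50.4% of all genes), 56 were past the rule of size (35.0%, against 2.55% of all genes) and 0 were past it the other way. The 56 are 54.9% of that library's own 102 higher genes. In the FACS library 173 were measured, of which 148 lay in the same direction and 60 were past the rule (34.7%, against 3.79% of all genes). Of 148 measured in both injured libraries, 40 were past the rule in both. Of the 256 lower genes, 42 of 176 measured were past the rule in the injured beads library (23.9%, against 2.87% of all genes). In the FACS library 48 of 158 were (30.4%, against 4.20%). Of 151 measured in both, 23 were past it in both. The share of all genes past it in both was not counted. The same rule kept cells of sets A, B, D and E out of set C in each library. Agreement in either direction, also of the genes named below, is thus partly fixed by the rule, and its part was not tested.

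By name, the 15 highest genes lay above 0 in 15 of 15 cases in the injured beads library and in 14 of 15 in the FACS library, and 7 and 6 of them were past the rule. C4b stood at 569 CPM in injured set C cells and 133 CPM in other injured mesenchymal cells (log2 2.10, 1.89 to 2.30), and at 503 and 164 CPM in the FACS library. Fst stood at 249 and 80.4 CPM in the injured beads library and at 284 and 95.9 CPM in the FACS library. Acvr2a, Ifi205, Bmper and Tspan11 were past the rule in both, and Penk in the beads library. Angpt1 was not: it stood at 140 CPM in injured set C cells and 127 CPM in other injured cells (log2 0.14, -0.23 to 0.50), and at 111 and 118 CPM in the FACS library. Cxcl14 was weaker, at 890 CPM and 446 CPM in the beads library (log2 0.998) and 644 and 452 CPM in the FACS library (log2 0.51).

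Lpl was among the genes that went furthest with set C after injury, at 2235 CPM in set C cells and 410 CPM in other cells of the beads library (log2 2.45, 2.34 to 2.55), and 1737 and 487 CPM in the FACS library. Dkk2 stood at 361 and 84.0 CPM and Fgf10, a fibroblast growth factor, at 98.2 and 14.0 CPM in the beads library. Among transcription factors, Osr1 was higher in set C cells of all 3 libraries, at 249 CPM in members and 78.4 CPM in other cells, and Prrx1 in both beads libraries, at 951 and 298 CPM in uninjured nerve. All 10 lowest genes lay below 0 in both injured libraries, and 9 and 4 of them were past the rule. In uninjured nerve most of their UMIs outside the members lay in set A or set E. The rule keeps cells of those sets out of set C in each library, so these low values are partly fixed by it. The FACS cells used also lack a cluster of 143 cells led by Sfrp5, Gjb2 and Cldn1, which was left out. The FACS value of Sfrp5 is therefore not like that of the beads libraries. Among uninjured cells, 2 of the 10 were past the rule against set B and 2 against set D. Detoxification enzymes had 6 higher and 0 lower of 15 in the beads library and 8 and 0 of 15 in the FACS library, and complement genes 4 and 0 of 11 and 7 and 0 of 14. Of the enzymes, Fmo2, Mgst1, Gstm1 and Gstt1 were higher in both, beside the markers Inmt and Adh1, which the rule used. The 7 complement genes of the FACS library include Cfd, which is also an adipocyte marker, at 94.7 CPM in set C cells and 6.79 CPM in other cells. Both adipocyte markers at the level of the rule, Car3 and Cfd, were higher in those set C cells, and that library held a cluster led by Car3, Cfd and Adipoq, which was left out. The part of adipocyte RNA was not tested. FACS set C cells had fewer UMIs (median 3654) than other mesenchymal-like cells of that library (6144), and 8 of 9 cell cycle genes were lower in them, values whose part in the FACS results was not tested.

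**Figure D5:**
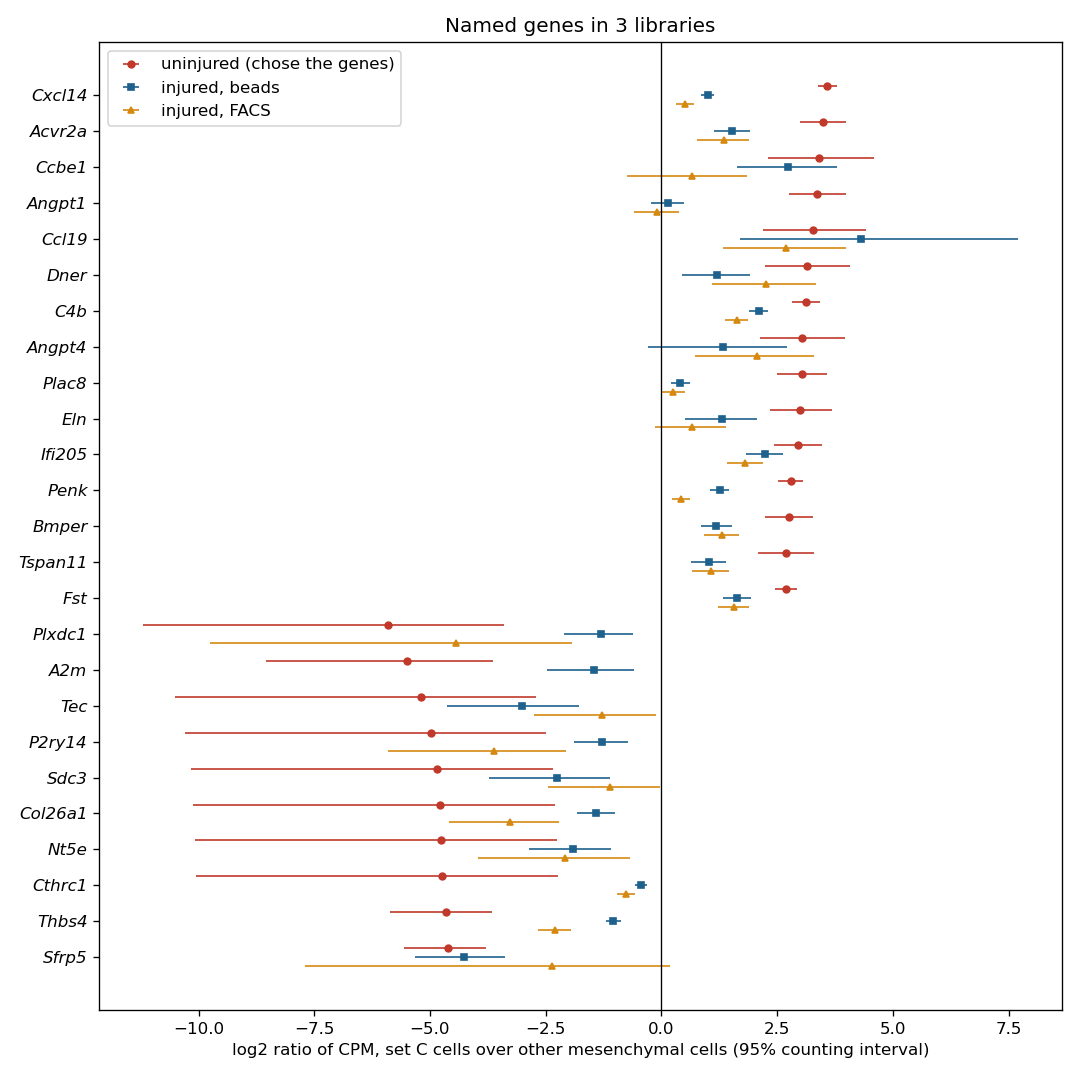
Log2 ratio of CPM in set C cells over other mesenchymal cells for the 15 highest and 10 lowest genes of the uninjured comparison, in 3 libraries, with 95% counting intervals. Genes were picked on the uninjured points. All 25 lie on the same side of 0 in the injured beads library, Angpt1 lies at 0.14 and -0.09 in the injured libraries, and A2m in the FACS library has no point because set C cells had 0 UMIs.

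Last, the set C cells of the injured beads library were set against the uninjured members. Injury and library cannot be told apart in it. Of 4069 genes, 422 (10.4%) were higher in injured set C cells and 303 (7.45%) lower, with 328 and 395 under DESeq2 size factors. The comparison shares the members with those above, so its values stand beside theirs and are not set against them. The markers chose the cells in both libraries, with z-scores made in each, so their levels are a description. At least 2 markers had a UMI in 51 of 166 injured set C cells and 117 of 149 members, so the cells chosen after injury carried fewer. Inmt stood at 435 CPM in injured cells and 2570 CPM in members, Gdf10 at 503 and 1399 CPM, Adh1 at 200.3 and 590 CPM and Cxcl13 at 225 and 740.0 CPM.

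The 8 genes highest in injured set C cells had several roles. Cthrc1, a secreted collagen triple helix protein, stood at 948 CPM in injured set C cells and 2.89 CPM in members (log2 8.36, 5.87 to 13.66), and at 1291 CPM in the other injured mesenchymal cells. Tnc, tenascin C, stood at 625 CPM in injured set C cells and at 0 UMIs in members, which is at least 72.1-fold higher against a floor of 3 UMIs over the members. Saa3, an acute-phase protein, was at least 51.2-fold higher on the same floor. Dlk1, a paternally expressed inhibitor of adipocyte differentiation, stood at 1232 and 31.8 CPM (log2 5.28, 4.43 to 6.29). The chemokines Ccl9 and Ccl2, the Wnt antagonist Wif1 and the ephrin Efnb2 completed the 8.

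Lower in injured set C cells were C7, a complement component, at 30.2 CPM in injured cells and 350 CPM in members, Bmp4 at 13.2 and 150.3 CPM, Clu at 13.2 and 142 CPM, Il6ra at 5.67 and 54.9 CPM and Stard4 at 1.89 and 54.9 CPM. The heat shock genes Hspa1b, whose near copy Hspa1a may share its reads, and Hspb1 and the small nucleolar RNA Snord13 completed the 8 lowest, and of 16 genes of the immediate early and dissociation stress list 1 was higher and 7 were lower. The part of that list in the comparison was not tested. Among detoxification enzymes 0 were higher and 9 lower of 17, including Fmo2 at 81.3 CPM in injured cells and 324 CPM in members, Gstm1 at 213 and 934 CPM, and Mt1 at 442 and 1399 CPM. Universal fibroblast genes had 0 higher and 9 lower of 15. Neurotrophic ligands had 4 higher and 0 lower of 8: Ptn, pleiotrophin, stood at 1105 and 69.4 CPM, Mdk, midkine, at 667 and 80.9 CPM, Igf1 at 3514 and 1512 CPM and Igf2 at 365 and 139 CPM. Lpl stood at 2235 CPM in injured set C cells and 3024 CPM in members, less than 2-fold apart.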

How the data were processed

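Single-cell RNA was measured by Drop-seq in 3 libraries. The authors deposited raw UMI counts, as whole numbers for each gene in each cell, not normalized. Per the submitters' processing notes the build was mm10. How reads were aligned and counted, and how mesenchymal cells were picked, is not given in the sources used here. All 1289 barcodes of the injured mesenchymal table were in the injured beads table. A gene with no row in a table was counted as 0 in pools compared across libraries.

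For the member rule, counts were scaled to 10000 per cell, log-transformed and z-scored per gene. Counts of a pool of cells were summed and given as CPM. Ratios carry exact conditional binomial intervals, CPM exact Poisson intervals and shares exact binomial intervals, all at 95% and for counting error only. With 1 library per group there is no p-value. A pool at 0 was given a floor of 3 counts. Gene lists were described by counts past the rule of size and by the median of members with at least 10 CPM. The members, lists and rules were chosen with earlier results of these data known. Named genes were the 15 highest and 10 lowest ratios past the rule against other uninjured cells, 5 and 5 against each set and 8 and 8 against injured cells, leaving out rule genes, other cell types' markers, and genes that are predicted or encode mitochondrial, ribosomal or haemoglobin products, plus rule genes and list members past the rule. Lpl, Mgp and the Cxcl13 split were added after their values were seen.

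FACS barcodes with at least 200 genes were clustered (2000 variable genes, 30 components, 15 neighbours, Leiden resolution 0.8). Clusters with mesenchymal markers were used unless they were shallow or led by another type's markers. The last check left out a cluster of 143 cells whose highest list was mesenchymal, since Krt19, a mesothelial marker, was among its leading genes. Sfrp5, Gjb2 and Cldn1, the last a set E gene, led it. This check was not applied to the beads libraries. No doublet caller was run, and an alternative left out cells with other types' markers. Tools were Python 3.11.15, numpy 2.4.6, pandas 2.3.3, scipy 1.17.1, scanpy 1.11.5, leidenalg 0.10.2, igraph 0.11.9, scikit-learn 1.9.0 and matplotlib 3.10.9. In R 4.3.3, scaling alternatives alone used DESeq2 1.42.0 and edgeR 4.0.16. The calculations were tested on simulated data. Alternatives were stricter member rules, thinning to 1000 UMIs, other scalings, a 10 CPM minimum, equal weight per cell, other z-scores and other resolutions. One gene is not reported here.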

Additional observations from a re-analysis of the deposited data

Results flagged for a closer look

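Postn went opposite ways with Cxcl13 in uninjured and injured nerve. Its log2 ratio in set C cells with Cxcl13 over those without was 3.18 in the uninjured library (994 CPM with, 110 CPM without), -0.44 in the injured beads library (2559 and 3470 CPM) and -0.98 in the FACS library (2141 and 4214 CPM). Myoc, which encodes myocilin, was lower in set C cells than in other cells of uninjured nerve (log2 -1.56, 214 and 631 CPM) and higher in the injured beads library (log2 1.57, 64.2 and 21.6 CPM). Serpinb1a was higher in uninjured members (log2 1.70, 124 and 38.4 CPM) and lower in set C cells of the FACS library (log2 -1.18, 37.9 and 85.6 CPM). Sdpr was lower in uninjured members (log2 -1.71, 57.8 and 189 CPM) and higher in FACS set C cells (log2 1.19, 75.8 and 33.3 CPM). Each was singled out because its directions were opposite in 2 libraries, and the differences between libraries were not tested.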

How the results depend on the processing

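No paired analysis was possible because each group is 1 library and replicate numbers pair nothing. All 25 named genes kept their direction against other uninjured cells under the alternatives run for them, but their sizes moved: 15 of 25 moved with mixed members left out, 14 with possible doublets left out and 9 with thinned cells. The log2 ratio of Angpt4 was 1.45 with possible doublets left out (3.04 otherwise), of Tspan11 1.39 (2.69), of Ifi205 5.21 (2.95), of Cxcl14 4.57 (3.59) and of Plxdc1 -2.13 (-5.90). With thinned cells Eln had 1.76 (3.00), Angpt1 2.19 (3.36) and A2m -2.77 (-5.49). With mixed members left out Tec had -1.90 (-5.20) and Cthrc1 -1.44 (-4.74). Cells dropped from set C in that way, by a score above 0.5 or by at least 2 markers were counted among the other cells. Ratios over the other cells under these alternatives are thus against a pool that holds former members. The rule took 13.9% of cells with a score above 0.5, 13.3% with at least 2 markers, 19.6% with possible doublets left out (265 of 880 cells remained) and 6.14% with mixed members left out, an alternative added after the data were seen, against 16.9%. At resolution 1.6 the largest share of members in 1 cluster was 35.6%, against 63.8%. At resolution 0.4 it was 61.1%, in a cluster of which 39.9% were members. With a 10 CPM minimum, 1156 genes passed against other cells (523 at 50 CPM), 984 against set D (650), 1740 against set A (924), 703 in the injured beads library (228), 862 in the FACS library (319) and 1276 for injured against uninjured set C cells (725). Leaving out possible doublets gave 430 against set D, 441 in the injured beads library and 209 in the FACS library. In the injured beads library a score above 0.5 gave 575, at least 2 markers 837, thinned cells 412, z-scores from uninjured cells 523 and mixed cells left out 408. In the FACS library a score above 0.5 gave 800 and at least 2 markers 484. Injured against uninjured set C cells gave 386 with at least 2 markers and 453 with thinned cells. The cause was not tested. TMM factors shifted log2 ratios by -0.13 against other cells, -0.29 against set D and -0.17 against set A. The split of higher and lower genes moved with scaling: 200 and 341 against other cells (TMM), 220 and 280 (TMM) or 242 and 275 (DESeq2) against set D, 404 and 495 or 407 and 491 against set A, 251 and 263 against set B (DESeq2), and 328 and 395 for injured set C cells (DESeq2). Depth limits low genes: Psmb9 at 52.0 CPM rested on 18 UMIs in members.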
